A study of Mus musculus with 4 samples.

Results

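Long intergenic noncoding RNAs (lincRNAs) with measurable counts were described in iEpiSCs, induced epiblast stem cells of the mouse, that carried or lacked c-Jun. A gene was taken as a member where GENCODE M21 gives it the gene type lincRNA and where its expected count was 10 or more in at least 2 of the 4 libraries. H19, Meg3, Rian, Mirg, Kcnq1ot1, Airn and genes on X and Y were left out. Of 29267 genes listed, 2769 were lincRNAs and 2123 of those were eligible by name and chromosome. The rule took 147 of these. Of the others, 1386 were listed at 0 in all 4 libraries and 590 were above 0 but short of the rule. The members were thus chosen by their expected counts in these same libraries, and the levels given here are descriptions.

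Cells of this kind resemble the implanted epiblast and are called primed, in contrast to the naive state of embryonic stem cells. They were made from embryonic stem cells grown in 2i and LIF. After 8 hours on serum-coated plates the cells were given medium with 20 ng/ml Activin A, 20 ng/ml bFGF, 2 µM XAV939 and 2.5 µM IWR-1, and colonies appeared at 4 to 5 days. XAV939 and IWR-1 are tankyrase inhibitors that lower canonical Wnt signalling. The groups were cells of genotype c-Jun-/- (2 libraries) and wild-type cells (2 libraries), both taken through that conversion and both numbered replicates 2 and 3. The extent of the deletion, the number of clones and the relation of the wild-type line to the knockout line are not stated in the labels, so genotype and cell line cannot be told apart. Nothing in the labels says that replicates were separate cultures, and p-values then measure only the spread between these samples, which may be technical. With 2 samples against 2, an exact permutation test cannot go below p = 0.333, so the tests below come from a model across all genes.

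Total expected counts were 4666559 to 6341342 per library, so 1 count was worth 0.159 to 0.218 CPM (counts scaled to 1e6 per library after TMM). Jun, checked first, was at 28.9 and 29.6 CPM in knockout replicates 2 and 3 and at 106 and 121 CPM in the wild-type replicates. Its log2 fold change was -1.96 ± 0.12 (SE; edgeR adjusted p = 1.83e-13). Reads on Jun thus remained in the libraries labelled knockout, and gene-level counts do not show which part of the gene they cover. The 8 primed epiblast markers summed to 2659 and 2687 TPM in knockout and to 2831 and 2809 TPM in wild type. Of these, Otx2 (-1.18), Sox2 (-1.14), Cdh2, Fgf5 and Dnmt3b were called lower in knockout and Pou5f1 higher (edgeR; log2 fold changes in brackets), while Nanog and T were not called, and T and Pou5f1 gave most of the sum. Naive markers summed to 5.88 to 10.6 TPM, with Nr0b1, Prdm14 and Dppa3 at 0 in all 4 libraries. Feeder fibroblast markers summed to 28.3 and 38.5 TPM in knockout and to 44.1 and 41.5 TPM in wild type. Of these, Col3a1 was called higher in knockout (3.58, with 46 and 21 counts against 2 and 3). Dcn (-1.58) and Postn (-1.28) were called lower, and the rest were not called or not tested. None of the 4 neural markers was at 0 in all libraries, and they summed to 20.1 and 21.2 TPM in knockout against 4.86 and 7.18 TPM in wild type. Of these, Pax6 (2.13), Tubb3 (2.13) and Sox1 (1.25) were called higher in knockout, and Neurod1 was not tested. Endoderm markers summed to 13.5 to 25.7 TPM (Afp and Ttr at 0) and trophoblast markers to 2.33 to 11.2 TPM. Both sums were lower in both knockout libraries than in either wild-type library. The trophoblast sum was mostly Gata3, which was not called (17 and 5 counts in knockout, 21 and 27 in wild type), and Cdx2 overlapped between genotypes. Among endoderm markers Gata6 was called lower and Gata4 was not called, while Sox7 had 1 count in each knockout library and 0 in wild type. The part of these other cell types in the values below was not tested, and in bulk RNA fewer cells of a type and less RNA per cell cannot be told apart. Of 684 chromosome 8 genes tested, 57.2% were called higher in knockout and 1.02% lower, with a median log2 fold change of 0.51.

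LincRNAs are transcribed by RNA polymerase II, capped and mostly spliced, and carry no long conserved reading frame. Some act where they are made, on chromatin or on a neighbouring gene. Others build nuclear bodies, serve as precursors of snoRNAs or microRNAs, or bind proteins in the cytoplasm. Most are made at lower levels than messenger RNAs and vary more between cell types, and in pluripotent cells a set of them changes as cells leave the naive state.

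Between the genotypes, 10 of the 140 members that could be tested were higher in knockout, 5 were lower and 125 were not past the threshold (edgeR quasi-likelihood test, adjusted p under 0.05 over 12598 genes). Among all genes tested, 8.21% were called higher and 7.32% lower, 15.5% in either direction. The members' shares were 7.14% higher and 3.57% lower. Off chromosome 8, where the shares of all genes were 5.4% higher and 7.68% lower, 9 of 133 tested members were higher and 5 lower. The median log2 fold change of the 140 was -0.004, beside 0.002 for all genes. Values with ± below are log2 fold changes of knockout over wild type with their SE (2 libraries per genotype). The 7 members left untested by the filter on low counts were 1700110I01Rik, Gm15834, Gm14963, 1700003M07Rik, Gm12688, Gm26518 and 2900076A07Rik. Both knockout libraries lay above both wild-type libraries for 36 members and below them for 35, and this held for 27% and 26.9% of all genes. The counts called lower were 3, 2, 3 and 1 without knockout replicate 2, knockout replicate 3, wild-type replicate 2 and wild-type replicate 3, and 8, 9, 12 and 8 were then called higher. DESeq2 called 6 higher and 1 lower. It did not call Gm37381, Platr10, Mir17hg, Gm26905, Gm26896, 3222401L13Rik, Trp53cor1 or Gm7292 (DESeq2 adjusted p of 0.0512 to 0.26). With chromosome 8 genes centred on the rest edgeR called 8 and 8.

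The share of members called differed with depth. Of the 51 tested members with a mean count under 20, 1.96% were called, against 9.87% of all genes in that range. At a mean count of 20 to 50 the shares were 6.38% of 47 members and 10.2% of all genes. At 50 to 200 they were 22.2% of 27 members and 13.2% of all genes, and at 200 or more 33.3% of 15 members and 19.6% of all genes. The share of members called was thus below that of all genes under 50 counts and above it over 50 counts, with 15 called members in all. Those called at 200 counts or more were Gm26825, Gm42418, Gm26870, Gm26905 and Gm7292. Gm26870 holds repeated sequence and the others match other genes over nearly all of their transcripts. The share in that range therefore rests on rows whose reads may belong to other genes or to repeats. The typical standard error was 0.40 for a member and 0.16 for a gene of the whole table. Protein-coding genes were called in 15.7% of cases, antisense genes in 12.4% and genes of the type processed transcript in 11.5%. The plot of log2 fold change against level places the members among the rest.

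**Figure D1:**
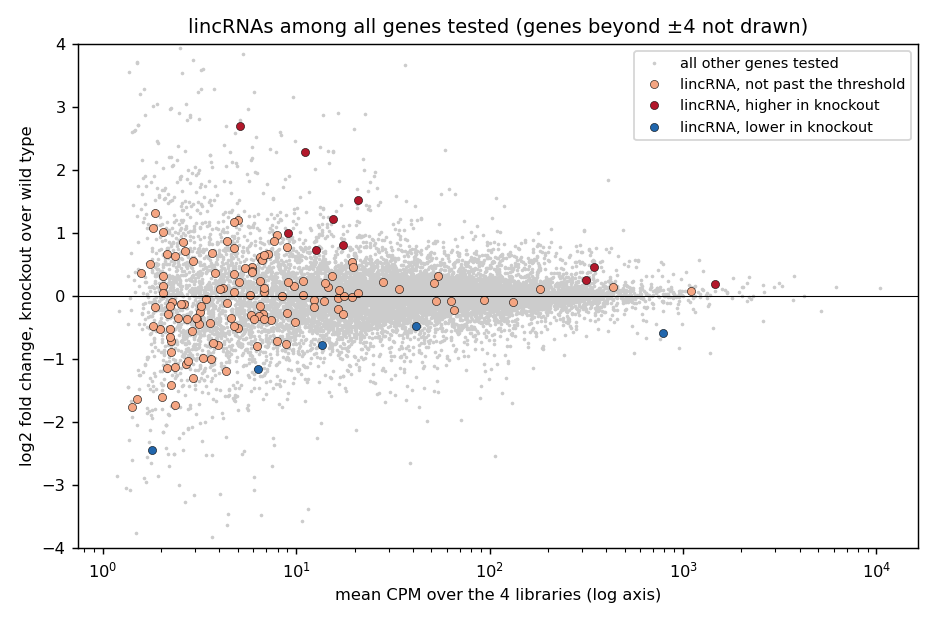
Log2 fold change (knockout over wild type) against mean CPM over the 4 libraries on a log axis, for the 140 tested lincRNAs (large points) and all other genes tested (small grey points). The 10 lincRNAs higher in knockout and 5 lower are in dark colours; most other lincRNAs sit at low CPM, where the spread of all genes is widest.

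Of the 147 members, 99 reached 10 counts in all 4 libraries, 24 in exactly 3 and 24 in exactly 2. Through the knockout libraries alone 3 members entered (Gm4425, Gm37867 and Gm26804), and 7 through the wild-type libraries alone. The rule took these 10 because 1 genotype was the higher. Among the 99 with 10 counts in every library, 9 were called higher and 4 lower, beside 8.21% and 7.32% of all genes tested. Just inside the rule lay Gm14963, with 10, 0, 11 and 6 counts in knockout replicates 2 and 3 and wild-type replicates 2 and 3. Just outside lay 9330104G04Rik, with 9, 5, 20 and 8.

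Most members had no more than a provisional name: 77 carried a Gm number and 46 a Rik clone name. Single-exon models made up 17, 51 had 2 exons and 79 had 3 or more, up to 10. The median of the longest annotated transcript was 2429 bases. Mean TPM (an abundance corrected for transcript length) was over 10 for 51 members, 1 to 10 for 87 and under 1 for 9. The median member was at 5.5 to 6.61 TPM in a library, while the median tested protein-coding gene was at 26.5 to 28.1 TPM.

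The summed level of the members was 18021 and 17818 TPM in knockout and 17092 and 16866 TPM in wild type. That was 1.69% to 1.80% of all TPM but 0.590% to 0.610% of all counts. Most of it sat in a few short rows whose transcripts are near copies of other genes. Gm10076 alone (chr14:105681828-105682211, GRCm38, 1 exon) gave 62.0% to 64.4% of the members' TPM. Over 383 bases it is 99.5% identical to a transcript of Rpl41, the gene of a small ribosomal protein. Gm10076 was at 11178 and 11357 TPM in knockout and 10821 and 10865 TPM in wild type. In TPM both knockout libraries were the higher, in CPM the genotypes overlapped, and its log2 fold change was 0.08 ± 0.05 (edgeR adjusted p = 0.289). Rpl41 had no row under its GENCODE identifier among the genes listed, so the 2 could not be set side by side. The expected counts of Gm10076 were whole numbers in every library. Whether its reads come from Rpl41 was not tested.

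Near-identical sequence was measured for every member, by aligning its transcripts to those of all other GENCODE genes and counting matches of at least 75 bases at 95% identity or more. The length of 75 is the number of cycles of the sequencing kit. At least 50% of the transcript matched another gene in 38 members. In 21 of these the match was to genes elsewhere in the genome, and in 17 mainly to a gene at the same place. The other 109 members were under 50%, and 49 of them had no match at all. Members matching elsewhere held 78.8% to 80.3% of the members' TPM. Without them the sum was 3567 and 3506 TPM in knockout and 3621 and 3487 TPM in wild type, and the 2 ranges overlapped. The sum over the 109 members under 50% was 2759.8 and 2749 TPM in knockout and 2459 and 2316 TPM in wild type, without overlap. These 109 include Gm26870, which holds repeated sequence. It was at 706 and 787 TPM in knockout and 559 and 552 TPM in wild type, a large part of that gap. The sum without Gm26870 was not taken. Of 20 tested members matching elsewhere, 3 were called higher and 1 lower. Of 17 matching a gene at the same place, none was higher and 3 were lower (edgeR; 1 had a positive value at an unadjusted p under 0.05, and DESeq2 and limma voom called none higher). Of 103 under 50%, 7 were higher and 1 lower, beside 8.21% and 7.32% of all genes tested. RSEM splits reads shared between genes by estimate, so values of the first kind are uncertain. The labels do not say that strand was kept, so overlapping genes cannot be told apart in the second kind.

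**Figure D2:**
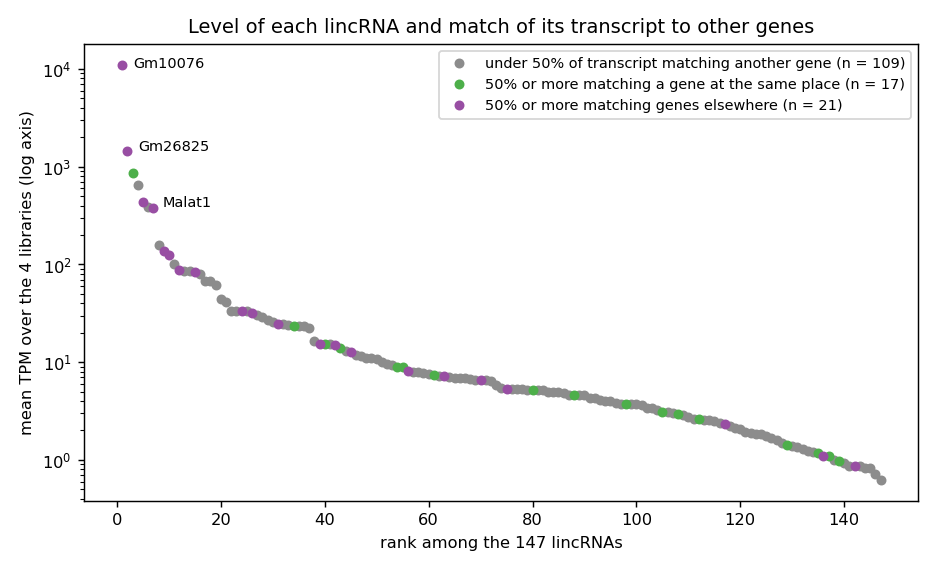
Mean TPM over the 4 libraries (log axis) of each of the 147 lincRNAs, ranked from high to low and coloured by the share of its transcript that matches another gene. Of the 2 highest, Gm10076 and Gm26825, both match genes elsewhere; the 109 lincRNAs with under 50% matching are spread over the rest of the range.

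Among members with under 50% matching, the largest increase was that of Gm4425 (chr12:22115756-22156646, minus strand, 5 exons), a gene with no described function known here. It was at 8.25 and 9.57 CPM in knockout (52 and 44 counts) and at 1.38 and 1.31 CPM in wild type (7 counts in each), so it entered the set through the knockout libraries alone. Both knockout libraries lay far above both wild-type libraries. The log2 fold change was 2.70 ± 0.47 (SE, n = 2 per genotype; edgeR adjusted p = 8.2e-05).

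2810429I04Rik (chr13:3478230-3501393, plus strand, 5 exons) was at 14.9 and 22.2 CPM in knockout and at 4.15 and 3.36 CPM in wild type. Its lowest knockout library was above its highest wild-type library, at a log2 fold change of 2.29 ± 0.31 (edgeR adjusted p = 1.55e-06). Gm4425 and 2810429I04Rik were also the only members past the threshold when edgeR's glmTreat asked for a log2 fold change beyond 1. The nearest protein-coding gene of 2810429I04Rik was Gdi2, which encodes a protein that takes Rab GTPases off membranes, with a start site 59833 bases away. Gdi2 went the other way, with a log2 fold change of -0.39 ± 0.05 (edgeR adjusted p = 1.68e-06).

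Gm37381 (chr1:3905739-3986215, minus strand, 3 exons) was at 8.72 and 15.4 CPM in knockout and at 6.53 and 5.41 CPM in wild type. The groups did not overlap, but the knockout libraries differed from each other by more than knockout replicate 2 differed from wild type. A log2 fold change resulted of 0.99 ± 0.33 (edgeR adjusted p = 0.038). It was 0.55 (edgeR adjusted p = 0.497) without knockout replicate 3 and 0.87 (edgeR adjusted p = 0.168) without wild-type replicate 3.

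**Figure D3:**
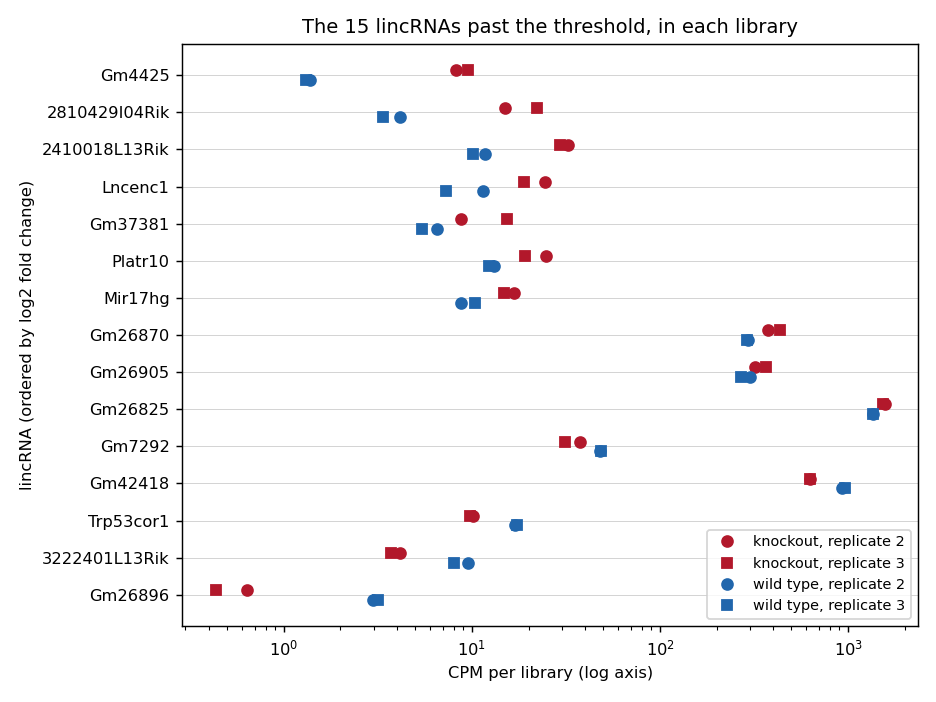
CPM (log axis) of the 15 lincRNAs past the threshold in each of the 4 libraries, ordered by log2 fold change; colour gives the genotype and shape the replicate number. The knockout points lie to the right of the wild-type points in the upper 10 lines and to the left in the lower 5.

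Among the 7 members with a known tie to pluripotent cells, Lncenc1 and Platr10 were higher in knockout, Trp53cor1 was lower, and 4 did not pass the test. Of these 3, limma voom called all, DESeq2 called Lncenc1 (adjusted p = 0.00752) but neither Platr10 (adjusted p = 0.0933) nor Trp53cor1 (adjusted p = 0.164), and limma on log2(TPM + 1) called none. The median of the 7 was 0.57, beside 0.002 for all genes tested, of which 8.21% were called higher and 7.32% lower. Lncenc1 (chr13:97434970-97497007, plus strand, 3 exons) is an RNA of naive embryonic stem cells known to support their glycolysis and self-renewal. It was at 24.6 and 18.9 CPM in knockout and at 11.5 and 7.28 CPM in wild type, and the groups did not overlap. This gave a log2 fold change of 1.23 ± 0.24 (edgeR adjusted p = 3.65e-04). No other gene's transcript matched Lncenc1. The summed naive markers did not move with it: knockout replicate 2 was highest at 10.6 TPM and the other 3 libraries lay between 5.88 and 7.13 TPM. Enc1, the nearest protein-coding gene at 193865 bases, encodes an actin-binding protein and was also higher, by 0.28 ± 0.07.

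Platr10 (chr3:75647446-75655731, minus strand, 3 exons) belongs to the Platr group, RNAs named for transcripts tied to pluripotency. It was at 24.9 and 19.1 CPM in knockout and at 13.1 and 12.3 CPM in wild type. Both knockout libraries were above both wild-type libraries, with knockout replicate 2 the higher. The log2 fold change was 0.81 ± 0.21 (edgeR adjusted p = 0.00776). It was 0.60 (edgeR adjusted p = 0.176) without knockout replicate 2. Platr15 and Platr22 lay in the same direction without passing, at 0.78 ± 0.31 (edgeR adjusted p = 0.0952) and 0.45 ± 0.40 (edgeR adjusted p = 0.524).

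Trp53cor1 (chr17:29057430-29079179, minus strand, 2 exons), also called lincRNA-p21, is a target of p53 transcribed upstream of the cell cycle inhibitor gene Cdkn1a. It was at 10.2 and 9.79 CPM in knockout and at 17.01 and 17.35 CPM in wild type, so the libraries of a genotype lay close together and the groups far apart. The log2 fold change was -0.78 ± 0.24 (edgeR adjusted p = 0.0224). Leaving out any 1 of the 4 libraries left a value of -0.81 to -0.76 with an edgeR adjusted p of 0.0614 to 0.0975. Cdkn1a, with a start site 11797 bases away, was at 354 and 363 CPM in knockout and 361 and 359 CPM in wild type (log2 fold change -0.007 ± 0.061). Of Trp53cor1's transcript, 51.6% matched an overlapping lincRNA gene, AC167363.1. Pvt1, the lincRNA next to Myc, had a value of 0.57 ± 0.38 (edgeR adjusted p = 0.358). Myc itself was called higher, by 0.30 ± 0.09 (edgeR adjusted p = 0.028). 1700020I14Rik, known as Cyrano, which directs the decay of the microRNA miR-7, was at 121 to 139 CPM in all 4 libraries, with a value of -0.09 ± 0.09.

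Since Jun binds DNA as part of AP-1, the 300 bases around the start sites of members (250 before and 50 after, RefSeq, GRCm38.p6) were searched for 2 motifs on both strands. These were TGANTCA, the letters of the AP-1 site, and TGACGTCA, those of the related CRE site that Jun and ATF dimers can bind. TGACGTCA does not contain TGANTCA. A RefSeq promoter was matched for 61 members, including 5 of the 10 called higher and none of the 5 called lower. TGANTCA was in 3 of the 61 (4.92%) and in 8.97% of all genes of the table. Among these 3, the RefSeq start lay 4337 bases from the GENCODE start for 1810058I24Rik and 268 bases for Gm16973. TGACGTCA was in 5 of the 61 (8.2%) and in 2.03% of all genes of the table. None of the 5 called higher held either, but the RefSeq start of Mir17hg, among them, lay 1511 bases from its GENCODE start. Of these 5, the 4 whose RefSeq start lay within 41 bases of the GENCODE start are shown as the sequence around the start of members that rose. They hold no capitals because neither motif was found. The 4 windows are chr13:97434720-97435019 (Lncenc1, plus strand), chr3:75655682-75655981 (Platr10, minus strand), chr13:3477982-3478281 (2810429I04Rik, plus strand) and chr12:23010194-23010493 (2410018L13Rik, minus strand).
Lncenc1: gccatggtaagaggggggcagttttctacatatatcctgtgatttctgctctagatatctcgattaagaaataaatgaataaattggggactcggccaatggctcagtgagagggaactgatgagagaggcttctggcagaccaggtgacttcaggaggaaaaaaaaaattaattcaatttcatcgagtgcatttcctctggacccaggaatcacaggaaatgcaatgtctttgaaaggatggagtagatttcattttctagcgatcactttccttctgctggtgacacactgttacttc
Platr10: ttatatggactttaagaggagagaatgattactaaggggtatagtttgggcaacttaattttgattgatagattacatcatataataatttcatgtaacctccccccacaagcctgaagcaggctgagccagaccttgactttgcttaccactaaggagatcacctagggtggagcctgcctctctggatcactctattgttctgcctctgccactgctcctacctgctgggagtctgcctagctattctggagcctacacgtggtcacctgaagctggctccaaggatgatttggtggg
2810429I04Rik: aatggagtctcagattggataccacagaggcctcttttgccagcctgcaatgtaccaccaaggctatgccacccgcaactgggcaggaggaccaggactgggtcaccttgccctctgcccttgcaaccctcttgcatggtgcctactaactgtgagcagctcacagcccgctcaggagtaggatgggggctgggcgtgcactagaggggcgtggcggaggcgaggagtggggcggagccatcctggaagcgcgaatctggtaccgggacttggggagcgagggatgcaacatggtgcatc
2410018L13Rik: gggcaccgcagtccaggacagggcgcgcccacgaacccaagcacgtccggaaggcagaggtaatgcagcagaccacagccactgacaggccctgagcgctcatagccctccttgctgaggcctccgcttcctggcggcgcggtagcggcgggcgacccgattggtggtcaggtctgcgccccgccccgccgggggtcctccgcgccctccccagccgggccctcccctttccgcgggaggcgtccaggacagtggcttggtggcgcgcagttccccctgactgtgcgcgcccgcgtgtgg
The first 2 held 42.3% and 47% G and C, with 4 and 1 CpG, and the last 2 held 61.3% and 72.7%, with 11 and 31 CpG.

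The 8 members whose promoter held either motif were all among those not called. As examples with the motif in capitals, 2 follow, Gm14149 with the CRE letters and Gm26641 with the AP-1 letters, at chr2:151204945-151205244 (Gm14149, plus strand) and chr1:171437273-171437572 (Gm26641, minus strand).
Gm14149: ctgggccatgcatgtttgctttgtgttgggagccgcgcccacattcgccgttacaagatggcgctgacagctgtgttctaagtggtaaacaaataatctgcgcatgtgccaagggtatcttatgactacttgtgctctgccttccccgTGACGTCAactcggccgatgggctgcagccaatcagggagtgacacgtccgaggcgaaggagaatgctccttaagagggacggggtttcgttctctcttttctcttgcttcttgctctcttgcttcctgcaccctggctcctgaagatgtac
Gm26641: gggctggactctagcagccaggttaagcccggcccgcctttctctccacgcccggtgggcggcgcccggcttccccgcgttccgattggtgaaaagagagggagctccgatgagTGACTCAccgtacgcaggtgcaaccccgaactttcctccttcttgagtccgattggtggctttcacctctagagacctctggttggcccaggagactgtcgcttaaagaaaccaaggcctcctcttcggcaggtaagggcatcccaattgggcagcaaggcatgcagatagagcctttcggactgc
Gm14149 was at 1.43 and 0.652 CPM in knockout and 3.96 and 3.36 CPM in wild type. It entered the set through the wild-type libraries alone, and its log2 fold change of -1.73 ± 0.63 did not pass (edgeR adjusted p = 0.0597). Gm26641 was at 2.38 and 0.652 CPM in knockout and 2.97 and 2.98 CPM in wild type, with a log2 fold change of -0.88 ± 0.63 (edgeR adjusted p = 0.396). A match is a description of letters, not a site, and no binding was measured in these files.

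Small RNA hosts, lincRNAs whose introns or exons hold a snoRNA or a microRNA, made up 12 members, of which 11 were tested. Mir17hg was higher in knockout, 10 did not pass and none was lower in edgeR (1 at an unadjusted p under 0.05, 6030443J06Rik; DESeq2 and limma voom called none in either direction). The median was 0.01, and 8.21% of all genes tested were called higher and 7.32% lower. Mir17hg (chr14:115042879-115046727, plus strand) is the primary transcript of the miR-17-92 cluster, which promotes proliferation and is a target of Myc. It was at 16.8 and 14.8 CPM in knockout and at 8.70 and 10.4 CPM in wild type, without overlap. The log2 fold change was 0.73 ± 0.25 (edgeR adjusted p = 0.0465). Leaving out any 1 library gave 0.60 to 0.87 with an edgeR adjusted p of 0.0523 to 0.236, and limma voom gave 0.73 (adjusted p = 0.054).

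The cluster's main mature microRNAs are shown for the families they form, with the seed (bases 2 to 8) in capitals, from RefSeq (GRCm38.p6, chromosome 14, plus strand). miR-17-5p and miR-20a-5p share the seed AAAGUGC, miR-19a-3p and miR-19b-3p share GUGCAAA, and miR-18a-5p and miR-92a-3p have their own.
miR-17-5p: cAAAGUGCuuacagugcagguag
miR-20a-5p: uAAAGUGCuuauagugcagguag
miR-18a-5p: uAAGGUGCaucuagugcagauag
miR-19a-3p: uGUGCAAAucuaugcaaaacuga
miR-19b-3p: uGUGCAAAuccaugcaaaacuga
miR-92a-3p: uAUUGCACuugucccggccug
Of the other microRNA hosts, 6720427I07Rik (chromosome 13) holds 3 let-7 genes. These make microRNAs that rise as cells differentiate, and their 5p arms share the seed GAGGUAG.
let-7a-5p: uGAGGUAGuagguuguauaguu
let-7d-5p: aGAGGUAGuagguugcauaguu
let-7f-5p: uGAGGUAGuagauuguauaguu
6720427I07Rik had 6 and 12 counts in knockout and 9 and 11 in wild type. Its value of -0.17 ± 0.67 was within its error (edgeR adjusted p = 0.911). The libraries hold host transcripts, and mature microRNAs were not measured.

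Of the 7 tested snoRNA hosts none was called by edgeR, and none by DESeq2, limma voom or at an unadjusted p under 0.05, with values from -0.02 to 0.69. Snhg6 was at 14.6 to 18.6 CPM, Snhg20 at 16.1 to 19.2 CPM and Epb41l4aos at 7.61 to 9.20 CPM, and in each the genotypes overlapped. Snhg12 spread most within wild type, at 9.69 and 18.1 CPM, against 16.0 and 14.8 CPM in knockout. Snhg18 had the largest value, 0.69 ± 0.50 (edgeR adjusted p = 0.415). Another small RNA host, Gm37245, was at 23.5 and 22.4 CPM in knockout and 20.4 and 11.2 CPM in wild type. Its value of 0.55 ± 0.22 did not pass (edgeR adjusted p = 0.1), and was 1.03 without wild-type replicate 2 (edgeR adjusted p = 0.00178). Of 15 tested snoRNP proteins, which bind and modify with these snoRNAs, 3 were higher: Nop56 by 0.22 ± 0.06, the pseudouridine synthase gene Dkc1 by 0.25 ± 0.08, and Naf1, on chromosome 8, by 0.64 ± 0.09. None of the 15 was lower, and among all genes tested 8.21% were called higher and 7.32% lower.

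None of the 4 architectural and housekeeping lincRNAs passed in edgeR, DESeq2 or limma voom, and 1 (Miat) had an unadjusted p under 0.05 in edgeR. Their median was -0.04. Malat1, of nuclear speckles, was at 483 and 426 CPM in knockout and 487 and 339 CPM in wild type, so the genotypes overlapped (0.14 ± 0.09). Its value rested on single libraries: 0.42 without wild-type replicate 2 (edgeR adjusted p = 1.39e-06), 0.23 without knockout replicate 3 (edgeR adjusted p = 0.0232), 0.05 without knockout replicate 2 (edgeR adjusted p = 0.791) and -0.09 without wild-type replicate 3 (edgeR adjusted p = 0.507). Neat1, the scaffold of paraspeckles, was at 13.3 and 10.0 CPM in knockout and 11.7 and 8.40 CPM in wild type (0.23 ± 0.28). Miat was at 6.50 and 5.44 CPM in knockout and 9.69 and 10.1 CPM in wild type, without overlap, and its value of -0.72 ± 0.33 did not pass (edgeR adjusted p = 0.155). Of 14 tested speckle and paraspeckle proteins 1 was higher, Nudt21 on chromosome 8 (0.47 ± 0.09), and none was lower. Among all genes tested the shares were 8.21% higher and 7.32% lower.

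2900097C17Rik, known as Norad, is a cytoplasmic RNA that binds Pumilio proteins. It was at 62.0 and 58.5 CPM in knockout and 64.3 and 75.7 CPM in wild type (-0.21 ± 0.12, edgeR adjusted p = 0.246). Gm7292 (chr6:117716342-117718868, 1 exon) matched Norad over 100% of its length at 99.2% identity. It was at 37.7 and 31.3 CPM in knockout and 48.3 and 48.5 CPM in wild type. Gm7292 was among the 5 called lower (-0.48 ± 0.14, edgeR adjusted p = 0.0195), with -0.36 (edgeR adjusted p = 0.189) without knockout replicate 3 and -0.47 (edgeR adjusted p = 0.0807) without wild-type replicate 3. Reads of these 2 genes are divided between them by estimate.

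Other near copies stood among the highest rows. Gm26825 (chr5:5781530-5783636) matched Hspa8 over 100% of its length, at 99.6% identity over 1940 bases; Hspa8 encodes the constitutive Hsc70 chaperone. Gm26825 was at 1571 and 1539 CPM in knockout and 1363 and 1360 CPM in wild type. The libraries of a genotype lay close together and the genotypes apart. It was higher by 0.19 ± 0.04 (edgeR adjusted p = 0.00146), and Hspa8 by 0.32 ± 0.04 (edgeR adjusted p = 2.11e-07). Gm26619, with 50.6% matching other genes and Rps18 as its best match, was at 172 to 207 CPM and not called (0.11 ± 0.08). The highest member by TPM with a count whole in every library and no match was 1810058I24Rik, at 60.3 and 62.9 CPM in knockout and 63.9 and 65.5 CPM in wild type (-0.07 ± 0.12).

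Gm42418 (chr17:39846958-39848788, plus strand, 1 exon) overlapped an rRNA gene of the annotation, CT010467.1, which was also its best match (100% identity over 1244 bases). In all, 100% of its transcript matched other genes. It was at 630 and 627 CPM in knockout and 926 and 958 CPM in wild type, and the gap between genotypes was many times the spread within them. The log2 fold change was -0.58 ± 0.05 (edgeR adjusted p = 2.54e-10), the smallest p of all members. Gm28625 matched other genes over 100% of its 205 bases and was at 7.14 and 6.74 CPM in knockout and 3.56 and 2.43 CPM in wild type (1.21 ± 0.43, edgeR adjusted p = 0.056).

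Gm26870 (chr9:3000282-3038313, minus strand, 4 exons) lies at the start of the assembled chromosome, and 46.8% of its transcript's 25-base words occur more than once within it. It was at 374 and 433 CPM in knockout and at 292 CPM in both wild-type libraries. The groups did not overlap, and the log2 fold change was 0.47 ± 0.07 (edgeR adjusted p = 4.32e-06). Gm26905, on chromosome 8 (chr8:58171435-58298866, plus strand), matched 164 other genes over 99.6% of its transcript. It was at 318 and 365 CPM in knockout and 302 and 270 CPM in wild type, called higher by 0.26 ± 0.07 (edgeR adjusted p = 0.0114). Without knockout replicate 3 the value was 0.16 (edgeR adjusted p = 0.253), and without wild-type replicate 3 it was 0.18 (edgeR adjusted p = 0.187). With chromosome 8 genes centred on the rest it was -0.26, below 0. Of the 7 members on chromosome 8, Gm26905 alone was called; 5 had a log2 fold change above 0 and the median of the 7 was 0.37, beside 0.51 for all genes of the chromosome. Gm6410 (-0.99 ± 0.51, edgeR adjusted p = 0.207) and Gm26853 (-0.40 ± 0.29, edgeR adjusted p = 0.396) were the 2 below 0.

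Of the remaining members called lower, 3222401L13Rik (chromosome 18, plus strand, 1 exon) ends just before the start of the protocadherin gamma gene Pcdhga1. It was at 4.12 and 3.70 CPM in knockout and 9.49 and 8.02 CPM in wild type. Its libraries did not overlap between genotypes, and the log2 fold change was -1.15 ± 0.38 (edgeR adjusted p = 0.0349). It was -1.26 to -1.03 with an edgeR adjusted p of 0.088 to 0.2 on leaving out any 1 library. Gm26896 (chr10:81606368-81609791, minus strand), at 0.634 and 0.435 CPM in knockout and 2.97 and 3.17 CPM in wild type, was chosen after its values were seen, since it lies under the 5 CPM set for naming, and it entered the set through the wild-type libraries alone. Its log2 fold change was -2.44 ± 0.74 (edgeR adjusted p = 0.0201), and any 1 library left out gave an edgeR adjusted p of 0.14 to 0.195. Gm26896 overlapped BC025920 over 80% of its transcript on the opposite strand, and BC025920 was at 2.57 to 5.60 CPM with overlapping genotypes (-0.05 ± 0.49).

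On chromosome 12, 2410018L13Rik (chr12:22953997-23010284, minus strand, 5 exons) was at 32.5 and 29.6 CPM in knockout and 11.7 and 10.1 CPM in wild type. The groups were widely apart, and the log2 fold change was 1.52 ± 0.20 (edgeR adjusted p = 9.85e-07). Of its transcript 79.3% matched genes elsewhere, 35 in all by any overlap, so its reads may come from more than 1 of them. It lies 0.838 Mb from Gm4425. Also in this region, Gm5784 was at 6.03 and 7.18 CPM in knockout and 3.16 and 2.61 CPM in wild type (1.18 ± 0.45, edgeR adjusted p = 0.0709). Its best match was 2410018L13Rik, at 97% identity over 406 bases.

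The window from 18 to 25 Mb of chromosome 12 was chosen after these values were seen. Of the 17 other genes tested in it, 5 were higher in knockout and none was lower (edgeR, with none lower at an unadjusted p under 0.05 either). Off chromosome 8, 5.4% of all genes tested were called higher and 7.68% lower. 5730507C01Rik was at 105 and 91.3 CPM in knockout and 18.99 and 20.34 CPM in wild type (2.32 ± 0.14, edgeR adjusted p = 5.17e-14). 1700030C10Rik had 86 and 50 counts in knockout and 1 and 2 counts in wild type. Gm10330 (2.33 ± 0.39) and 9030624G23Rik (2.99 ± 0.75) were the next. Between them lay genes with values near 0, such as Cpsf3 (0.03 ± 0.09) and Ywhaq (0.04 ± 0.06), and Rrm2, a ribonucleotide reductase subunit gene, was higher by 0.46 ± 0.09. The map of this window shows the order.

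**Figure D4:**
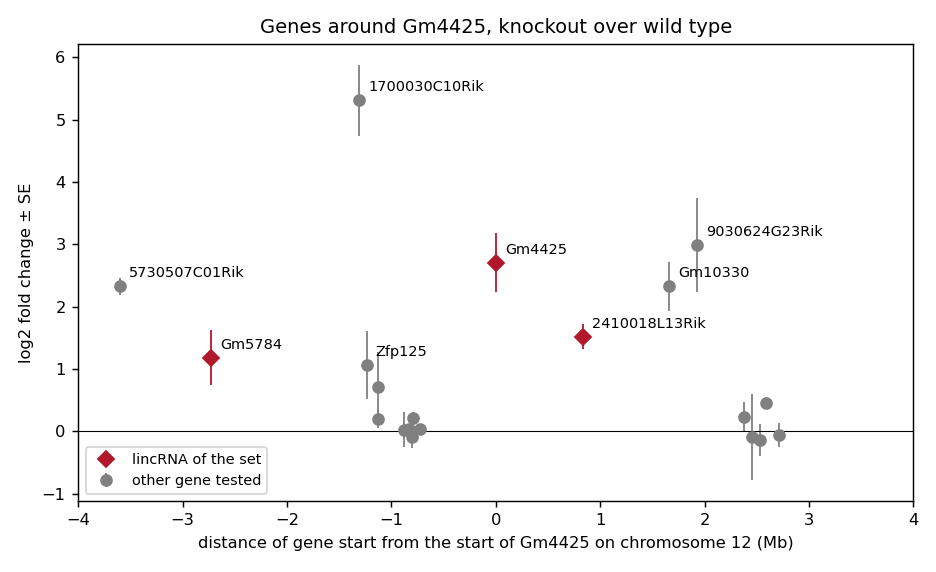
Log2 fold change (knockout over wild type, bars are SE) of the 20 genes tested in the window on chromosome 12, against the distance of their start from that of Gm4425 in Mb. The 3 lincRNAs (diamonds) and 5 other genes lie above 1, while most genes between them lie near 0.

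LincRNAs were also set beside their nearest protein-coding gene, by start site. The start sites were within 5 kb in 48 of 147 pairs, and 34 of these pairs were divergent (head to head on opposite strands). None of the 31 tested divergent lincRNAs was called by edgeR, DESeq2 or limma voom, and 3 had an unadjusted p under 0.05 in edgeR. Both genes were tested in 41 pairs within 5 kb. Across these pairs Pearson's r of the log2 fold changes was 0.418 and Spearman's rho 0.484; across all 103 tested pairs they were 0.287 and 0.266. Both values of a pair come from the same 4 libraries, and reads cannot be assigned to a strand, so this is a description. The pair farthest out was Gm26573 and Rex2, at 1.32 ± 0.78 and 4.07 ± 0.78. For 6 of the 41 pairs the protein-coding gene was higher and for 2 it was lower, beside 8.21% and 7.32% of all genes tested. Examples are Zfp984 (0.56 ± 0.15) beside Gm20707 (0.65 ± 0.36, edgeR adjusted p = 0.249) and Setd1b, of a histone methyltransferase (-0.35 ± 0.11), beside AI480526 (-0.27 ± 0.30, edgeR adjusted p = 0.633).

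**Figure D5:**
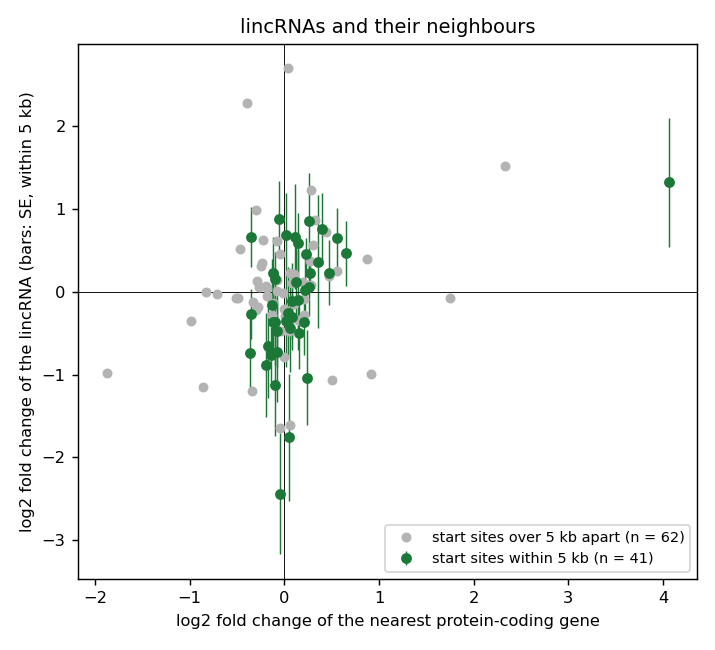
Log2 fold change of each tested lincRNA (vertical axis) against that of its nearest protein-coding gene (horizontal axis), both knockout over wild type, for 41 pairs with start sites within 5 kb (bars are the SE of the lincRNA) and 62 pairs farther apart. Most pairs lie within 1 of 0 on both axes, with Gm26573 and Rex2 at the far right.

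Of the 15 called members, 7 of those higher and 4 of those lower had a tested nearest protein-coding gene. In 3 of these that gene was called in the same direction. They were Lncenc1 with Enc1, 2410018L13Rik with Gm10330 at 769981 bases, and Gm26905 with Galnt7 at 518403 bases. The last pair lies on chromosome 8, where 57.2% of all genes tested were called higher. Across all 103 tested pairs the protein-coding gene was higher in 15 and lower in 7. Of 4 members beside regulators of the early embryo, 3 were tested and none passed in edgeR, DESeq2 or limma voom, while 1 (9030622O22Rik) had an unadjusted p under 0.05 in edgeR. 9030622O22Rik, beside Foxa2, a gene of endoderm and node, was at 0.952 and 0.435 CPM in knockout and 2.57 and 2.05 CPM in wild type, through which alone it entered the set, without overlap (-1.64 ± 0.75, edgeR adjusted p = 0.149). Gm26735, which shares 98.8% of its transcript with the overlapping Sox4, was at 25.4 and 16.7 CPM in knockout and 27.7 and 13.6 CPM in wild type (0.06 ± 0.24). Sox4 was called lower (-0.27 ± 0.09, edgeR adjusted p = 0.0317). Pvt1, given above, was also among the 3.

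Factors that degrade noncoding RNA were taken from lists. Of 14 tested nonsense-mediated decay factors, Upf1 (0.43 ± 0.09) and Upf3a (0.63 ± 0.14) were higher and none was lower, with a median of 0.04. Of 17 tested nuclear exosome subunits and adaptors, Mphosph6 was higher (0.67 ± 0.14) and none was lower, with a median of 0.06. All 3 of these genes are on chromosome 8. In the 4 lists of factors given here, DESeq2 and limma voom also called none lower, and no member was lower at an unadjusted p under 0.05 in edgeR. Called higher by edgeR were 14.3% of decay factors, 5.88% of the exosome list, 7.14% of speckle and paraspeckle proteins and 20% of snoRNP proteins. Among all genes tested 8.21% were called higher and 7.32% lower. Lists of 14 to 17 genes are too small to read the absence of decreases as a trait of these factors.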

How the data were processed

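RNA was measured in 2 knockout and 2 wild-type libraries, made with a TruSeq RNA kit and sequenced on an Illumina NextSeq instrument per the labels' protocols. RSEM, Bowtie2 and bcl2fastq were used with build mm10, per the submitters' processing notes. Versions, options, annotation release and strand setting were not given in these sources. The authors deposited for each gene an expected count (an estimated count, with shared reads split), a TPM and an FPKM value and an effective length, per the file headers. FPKM was not used in a test.

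Of 29267 genes, 28756 were matched by identifier to GENCODE M21 (GRCm38). Expected counts were rounded, filtered (filterByExpr, minimum count 10, total 15), scaled by TMM and tested with edgeR 4.0.16 in R 4.3.3 (quasi-likelihood, no covariate). P-values were adjusted by Benjamini-Hochberg over 12598 genes at 0.05. Each SE is the size of the log2 fold change over the root of F, and the biological coefficient of variation came to 6.5%. Counting error at a count of 0 allows up to 3 counts, 0.476 to 0.653 CPM. Across genes, the difference of replicate 2 from replicate 3 in knockout correlated at 0.02 with that in wild type. Replicate numbers were thus not taken as pairs. Transcripts were aligned with megablast (BLAST+ 2.17.0).

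The members and lists were chosen with earlier results of these data known. Named members were the largest changes called, at 5 CPM or more on average and without overlap, the 8 highest by TPM, up to 5 of each group by p, members near 0 in 1 genotype (none was found), and the nearest protein-coding gene of the first. Members of lists, neighbours within 5 kb and motif holders were further named after their values were seen. Alternatives were other scaling, filters, DESeq2 1.42.0, limma 3.58.1 (voom, and log2(TPM + 1)), a replicate block, chromosome 8 centring, glmTreat, other membership rules and leaving out each library.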

Additional observations from a re-analysis of the deposited data

How the results depend on the processing

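Against 10 lincRNAs higher and 5 lower, RLE scaling and a filter of 1 CPM in 2 libraries gave the same counts, and 12 and 5 were called with no filter. DESeq2 called 6 and 1, limma on log2(TPM + 1) 5 and 1, centring of chromosome 8 genes 8 and 8, and the test against a log2 fold change of 1 called 2 and 0 (edgeR). Leaving out 1 library gave 8 to 12 higher and 1 to 3 lower, the fewest lower without wild-type replicate 3. With 10 counts in all 4 libraries required, 9 and 4 were called. With the replicate block the counts were 13 and 5. The replicate numbers do not pair the samples by any label. Across all genes tested, the difference of replicate 2 from replicate 3 in knockout correlated at 0.02 with that in wild type. Reversed values were those of Gm26905 (-0.26 with chromosome 8 centred, adjusted p = 0.0134), 1810058I24Rik (0.12 on log2(TPM + 1)) and, on leaving out 1 library, Malat1 (-0.093 to 0.42), Gm26619 (-0.027 to 0.23) and Gm26735 (-0.37 to 0.64; -0.29 without knockout replicate 2). Across the 13 alternatives other than the test against a fold of 1, 2410018L13Rik, Gm4425, Gm26870, 2810429I04Rik and Gm42418 were called in every one, Lncenc1 and Gm26825 in 12, Platr10 in 10, Gm7292 in 9, Gm26905 in 8, 3222401L13Rik, Trp53cor1, Gm26896 and Gm37381 in 7 and Mir17hg in 4. The cause of these differences was not tested. The 13 alternatives do not include other membership rules. Gm4425 entered the set through the knockout libraries alone and is not a member where 10 counts are required in all 4 libraries. Under a mean of 20 counts the typical SE of a lincRNA was 0.62 and 1 of 51 tested was called (Gm26896, -2.44), while Gm14149 at -1.73 and 6030443J06Rik at -1.76 did not pass.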

Other observations

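Among lincRNA genes of the type as a whole, 149 were tested once those left out by name or on X and Y are added, and 13 were called higher and 5 lower (edgeR), so 3 of the increases belong to genes outside the set described. By chromosome, the 9 tested members on chromosome 9 had a median log2 fold change of 0.47, with 8 of 9 above 0 and 1 called. That median was the value of Gm26870, which holds repeats, and Gm28625 and Gm29562, near copies of other genes, also lie there. The 4 tested on chromosome 7 were all below 0, with a median of -0.65 and none called or at an unadjusted p under 0.05 (edgeR). These 2 chromosomes were picked from all after their values were seen and hold few members. All genes on them were not set beside these values. Members with whole-number counts in every library, as unsplit reads give, numbered 85. Of the 80 tested, 6 were higher and 2 lower, beside 8.21% and 7.32% of all genes tested.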
